A study of Homo sapiens with 16 samples.

Results

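Genes of epithelial cell adhesion and its control, 10 in number, were followed across 4 lines of HCT116 cells at 2 oxygen levels: CDH1, EPCAM, CLDN3, CLDN4, CLDN7, ELF3, GRHL2, GRHL3, ZEB1 and VIM. They were taken by name, as the rows of the gene count table that carry those names. Earlier results of these data were known when the names were chosen, so counts of these genes called are descriptions only. All 10 of 10 were found among the 23669 genes of the table, and all 10 were among the 15520 genes with enough counts to be tested. HCT116 is an established human colorectal carcinoma line. The altered lines were HIF1A-null, in which HIF1A was deleted from the genome (HIF1A-/-), shCDK8, which stably expressed a short hairpin RNA (shRNA) against CDK8, and shTIP60, which stably expressed an shRNA against TIP60, the acetyltransferase encoded by KAT5. Their control, shNT, stably expressed a non-targeting shRNA. HIF1A-null carries no shRNA in its labels while shNT does, so the presence of an shRNA cannot be told apart from the HIF1A genotype in that comparison. The labels do not name the hairpins or say how many clones were used. Cells of each line were kept for 24 h at 1% oxygen (hypoxia) or at ambient 21% oxygen (normoxia), and poly(A) RNA was sequenced on an Ion Torrent Proton from 2 replicates of each of the 8 groups, which the design text calls independent and biological. The columns of the table carry no replicate number, so the pair of libraries of a group is named A and B, the lower and the higher library number.

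Epithelial cells hold to their neighbours through adherens junctions, whose core is the calcium-dependent cadherin encoded by CDH1 (E-cadherin), and seal the space between them with tight junctions built from claudins. ELF3, an ETS-family transcription factor, and the grainyhead-like factors GRHL2 and GRHL3 are activators of such epithelial genes, while ZEB1 is a zinc-finger repressor that binds E-box sequences at them. VIM encodes vimentin, the intermediate filament protein of mesenchymal cells, which many carcinoma cells gain when they lose epithelial features. HIF1A codes for the subunit of hypoxia-inducible factor 1 whose stability depends on oxygen, CDK8 is a kinase of the Mediator complex, and TIP60 acetylates histones.

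Total counts per library were 26620086 to 39401494, so that a floor of 3 counts was worth 0.0716 to 0.112 CPM. CPM are a gene's counts scaled to library totals and to trimmed mean of M-values (TMM) factors, which were 0.862 to 0.965 in hypoxia libraries and 1.01 to 1.12 in normoxia libraries, while the 10 most abundant genes took 5.87 to 7.35% and 3.50 to 3.97% of the counts there. With library totals alone as the scale, the median gene moved by -0.16 to -0.28 (log2) in the 4 hypoxia comparisons and by -0.12 in HIF1A-null against shNT in hypoxia. The called genes then split into 1485 higher and 5141 lower in HIF1A-null (2935 and 2958 with TMM), 1447 and 3085 in shCDK8 (2135 and 1713), 1899 and 4859 in shTIP60 (3007 and 3076) and 2116 and 4605 in shNT (3208 and 3103), and into 2317 and 4008 for HIF1A-null against shNT in hypoxia (3157 and 3221). In normoxia the targeted genes were at 13.6 ± 0.763 CPM of HIF1A in HIF1A-null and 107 ± 0.805 CPM in shNT, 6.29 ± 0.729 CPM of CDK8 in shCDK8 and 26.0 ± 1.78 CPM in shNT, and 19.7 ± 0.762 CPM of KAT5 in shTIP60 and 85.8 ± 1.34 CPM in shNT (SD, n = 2 each). In hypoxia HIF1A counts in the libraries labelled HIF1A-null were at 48.9 ± 12.4 CPM, against 65.9 ± 6.55 CPM in shNT, and the gene's counts do not show which exons the deletion removed. Of 11 colon epithelium markers, 6 exceeded 1 CPM, among them the keratins KRT8, KRT18 and KRT19, and 5 (VIL1, CDH17, LGALS4, FABP1 and TFF3) stayed under 1 CPM in every library, with FABP1 and TFF3 at 0. Their summed level was 6502 to 10610 CPM in hypoxia libraries and 3699 to 6953 CPM in normoxia libraries. Most of these counts came from KRT8, KRT18 and KRT19. KRT20 and CDX2 had lower means in hypoxia in each line, in shNT 0.681 against 4.97 CPM and 17.7 against 27.9 CPM. MUC2 exceeded 1 CPM only in shTIP60, with means of 3.24 CPM in hypoxia and 2.44 CPM in normoxia. Of 8 fibroblast markers 6 were under 1 CPM in every library and LUM was at 0, of 6 endothelial markers 4 were under 1 CPM, and of 7 blood markers 5 were, among them PTPRC, CD3E, CD14 and HBB. The summed fibroblast markers, most of their counts from COL1A1, reached 43.7 to 82.7 CPM in hypoxia libraries, against 21.8 to 40.7 CPM in normoxia libraries. The summed blood markers, most of their counts from CD68, reached 30.7 to 117.7 CPM in hypoxia libraries, against 7.64 to 25.3 CPM in normoxia libraries, and the summed endothelial markers were 0.877 to 3.35 CPM and 0.833 to 3.15 CPM.

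In hypoxia CDH1, CLDN4, CLDN7 and ELF3 rose in all 4 lines, while EPCAM, GRHL2 and ZEB1 passed the test in none in the fit of all libraries. A gene was called at an adjusted p of 0.05 or less (Benjamini-Hochberg over all genes tested, quasi-likelihood test of edgeR). Of the 10 genes, 4 were called higher and 2 lower in HIF1A-null, where 18.9% of all genes tested were called higher and 19.1% lower (38.0% in either direction). In shCDK8, 5 were called, each of them higher, where 13.8% of all genes were called higher and 24.8% in either direction. In shTIP60 again 5 were called higher, with a background of 19.4% higher and 39.2% in either direction, and 5 in shNT, with 20.7% and 40.7%. In these bulk libraries a smaller number of expressing cells and less RNA per cell cannot be told apart. Each change was tested against the spread between the 2 replicates of a group, estimated from all 8 groups together. The 16 libraries leave 8 residual degrees of freedom, to which the fit adds prior degrees of freedom drawn from the other genes.

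**Figure D1:**
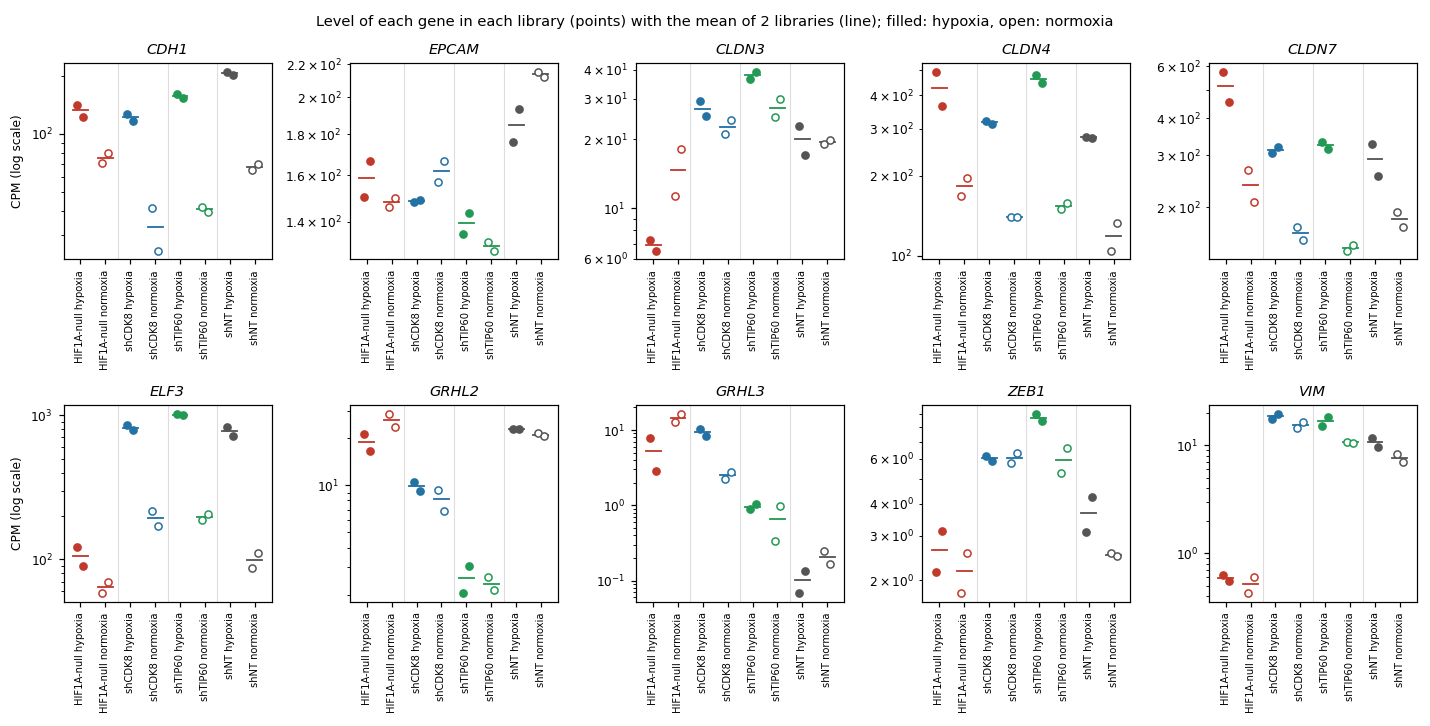
Level of each of the 10 genes in every library, in CPM on a log axis, for HIF1A-null, shCDK8, shTIP60 and shNT, with hypoxia (filled points) left of normoxia (open points) in each line. ELF3 stands between 720.0 and 1017 CPM in the hypoxia libraries of the 3 shRNA lines but at 123 and 89.5 CPM in hypoxic HIF1A-null libraries, and VIM is under 1 CPM in all 4 HIF1A-null libraries.

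CDH1 lies on chromosome 16 (68771195 to 68869440, 16 exons). Positions of all genes are in GRCh37, with the exons of the canonical transcript. Hypoxic HIF1A-null libraries had 142 and 123 CPM, against 70.3 and 80.1 CPM in normoxic ones. In shCDK8 the values were 127 and 116 CPM in hypoxia and 41.4 and 25.0 CPM in normoxia. In every line both hypoxia libraries lay above both normoxia libraries. shTIP60 had 160.5 and 153 CPM in hypoxia and 42.0 and 39.6 CPM in normoxia, and shNT had 209 and 202 CPM and 64.8 and 69.7 CPM. The hypoxic shNT libraries held the highest CDH1 of all 16, and the 2 normoxic shCDK8 libraries, of which 1 overlapped the shTIP60 range, held the lowest mean. On the log2 scale CDH1 rose in hypoxia by 0.81 ± 0.17 (edgeR adjusted p = 0.00183) in HIF1A-null, 1.88 ± 0.18 (edgeR adjusted p = 2.74e-06) in shCDK8, 1.94 ± 0.18 (edgeR adjusted p = 9.99e-07) in shTIP60 and 1.61 ± 0.18 (edgeR adjusted p = 4.88e-06) in shNT (log2 fold change ± SE). An antisense long non-coding RNA of the GENCODE annotation overlaps a CDH1 exon, and since the strand setting of the counting is not given in the sources used here, reads of the pair cannot be told apart.

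EPCAM, on chromosome 2 (47572297 to 47614740, 9 exons), encodes an epithelial cell adhesion protein of the cell surface, and its level varied least among the 10 genes. The highest group mean was 1.64 times the lowest. Hypoxic libraries held 150.4 and 166 CPM in HIF1A-null, 148 and 149 CPM in shCDK8, 135 and 144 CPM in shTIP60 and 176 and 193 CPM in shNT. Normoxic libraries held 146 and 149.9 CPM in HIF1A-null, 157 and 167 CPM in shCDK8, 132 and 129 CPM in shTIP60 and 215 and 212 CPM in shNT. Changes in hypoxia were 0.10 ± 0.11, -0.13 ± 0.11, 0.10 ± 0.11 and -0.21 ± 0.11 (log2 ± SE) in those lines, none of them called. With library totals as the scale the shNT change was called lower (edgeR adjusted p = 0.00901).

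The 3 claudins are membrane proteins of the tight junction strand. CLDN4, on chromosome 7 (73213872 to 73247020, 1 exon), rose in hypoxia in every line. It was at 489.6 and 366 CPM in hypoxic and 168 and 196 CPM in normoxic HIF1A-null libraries, and at 322 and 312 CPM and 139.8 and 140.0 CPM in those of shCDK8. In shTIP60 the values were 479 and 444 CPM in hypoxia and 149.6 and 157 CPM in normoxia, and in shNT 279 and 277 CPM and 105 and 132 CPM. The hypoxia and normoxia ranges were apart in each line, and the log2 increases were 1.23 ± 0.15 (edgeR adjusted p = 1.98e-05), 1.18 ± 0.15 (edgeR adjusted p = 5.93e-05), 1.59 ± 0.15 (edgeR adjusted p = 1.68e-06) and 1.23 ± 0.15 (edgeR adjusted p = 1.54e-05) in HIF1A-null, shCDK8, shTIP60 and shNT.

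CLDN7, on chromosome 17 (7163222 to 7167302, 4 exons), also rose in every line. It was highest in hypoxic HIF1A-null, at 574 and 455 CPM, against 268 and 209 CPM in normoxia. shCDK8 had 305 and 319.7 CPM in hypoxia and 172 and 155 CPM in normoxia, and shTIP60 had 334 and 315 CPM and 143 and 149.6 CPM. In shNT the values were 328 and 255 CPM and 193 and 171 CPM. In no line did the hypoxia and normoxia ranges overlap, but the hypoxic levels of shCDK8, shTIP60 and shNT overlapped each other. The log2 changes were 1.11 ± 0.16 (edgeR adjusted p = 7.92e-05) in HIF1A-null, 0.94 ± 0.16 (edgeR adjusted p = 6.38e-04) in shCDK8, 1.15 ± 0.16 (edgeR adjusted p = 5.05e-05) in shTIP60 and 0.68 ± 0.16 (edgeR adjusted p = 0.00325) in shNT. CLDN7 shares 38 bases with ELP5 on the opposite strand. A further protein-coding gene of the GENCODE annotation, on the same strand, overlaps CLDN7 by 2187 bases, including exon sequence. Its reads cannot be told apart from those of CLDN7 there, so some CLDN7 reads are uncertain.

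CLDN3, on chromosome 7 (73183327 to 73184600, 1 exon), was called lower in HIF1A-null and was not called in the fit of all libraries in the other lines. It was at 7.29 and 6.53 CPM in hypoxic HIF1A-null libraries, the lowest of all 16, against 11.3 and 18.2 CPM in normoxic ones, and fell by 1.09 on the log2 scale (-1.09 ± 0.21, edgeR adjusted p = 8.56e-04). In shCDK8 it was at 29.2 and 25.1 CPM in hypoxia and 21.0 and 24.2 CPM in normoxia, in shTIP60 at 36.6 and 39.2 CPM and 25.0 and 29.8 CPM, and in shNT at 22.8 and 17.0 CPM and 19.1 and 19.9 CPM. These lines had changes of 0.26 ± 0.20, 0.47 ± 0.20 and 0.03 ± 0.20, which were not called. The shTIP60 change was called higher without the filter on counts (edgeR adjusted p = 0.0293) and with only the groups compared in the fit (edgeR adjusted p = 5.52e-05). CLDN3 consists of a single exon. The 272 such genes tested had a median change of -0.45 in hypoxic against normoxic HIF1A-null libraries, where the median over all genes was -0.00, and the part of this in the CLDN3 result was not tested. CLDN4, also of 1 exon in its canonical transcript, rose in the same libraries, and the part of such a shift in its result was not tested either.

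Of the 10 genes, 7 were found in the RefSeq promoter table (GRCh38.p14), which gives 250 bases before to 50 after a transcription start. CDH1, EPCAM and GRHL2 are named only. Each window was located exactly in GRCh37. The motifs searched on both strands were the E-box CACCTG, the kind that ZEB1 and SNAI1 proteins bind, the grainyhead motif AACCNGTT and the core ACGTG of the hypoxia response element. Of 35116 promoters of the table, 20.6% held the E-box, 1.73% the grainyhead motif and 21.4% the ACGTG core. The windows of 5 genes whose levels the comparisons turn on are shown 5′ to 3′ with matches in capitals, for comparison of those that rose in hypoxia (CLDN4, CLDN7, ELF3), the gene that differed most in level (GRHL3) and the mesenchymal filament gene (VIM). CLDN7 lists 2 starts, of which the one with E-boxes is shown, and GRHL3 likewise.
CLDN4 (GRCh37 chr7:73245076-73245375, plus strand): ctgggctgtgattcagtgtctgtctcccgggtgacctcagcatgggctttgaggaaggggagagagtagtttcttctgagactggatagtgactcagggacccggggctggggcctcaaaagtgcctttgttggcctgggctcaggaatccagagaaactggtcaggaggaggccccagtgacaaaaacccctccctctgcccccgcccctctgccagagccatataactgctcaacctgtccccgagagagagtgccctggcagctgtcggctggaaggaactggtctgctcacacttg
CLDN7 (GRCh37 chr17:7165748-7166047, minus strand): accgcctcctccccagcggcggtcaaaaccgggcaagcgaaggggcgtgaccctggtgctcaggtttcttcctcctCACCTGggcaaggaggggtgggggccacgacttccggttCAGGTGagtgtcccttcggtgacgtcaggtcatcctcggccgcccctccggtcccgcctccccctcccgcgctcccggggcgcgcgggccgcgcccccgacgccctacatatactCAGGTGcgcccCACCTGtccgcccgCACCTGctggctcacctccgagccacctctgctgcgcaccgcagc
ELF3 (GRCh37 chr1:201979465-201979764, plus strand): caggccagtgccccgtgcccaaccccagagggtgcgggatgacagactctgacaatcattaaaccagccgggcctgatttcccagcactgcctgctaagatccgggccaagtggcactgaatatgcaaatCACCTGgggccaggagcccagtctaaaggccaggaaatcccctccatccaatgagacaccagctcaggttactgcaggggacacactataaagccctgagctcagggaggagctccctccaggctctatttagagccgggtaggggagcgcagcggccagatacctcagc
GRHL3 (GRCh37 chr1:24645597-24645896, plus strand): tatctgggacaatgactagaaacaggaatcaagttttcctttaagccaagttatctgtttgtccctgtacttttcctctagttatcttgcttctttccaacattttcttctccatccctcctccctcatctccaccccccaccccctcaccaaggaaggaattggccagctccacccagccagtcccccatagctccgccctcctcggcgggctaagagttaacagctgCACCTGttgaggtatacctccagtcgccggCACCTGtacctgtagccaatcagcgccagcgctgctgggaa
VIM (GRCh37 chr10:17269990-17270289, plus strand): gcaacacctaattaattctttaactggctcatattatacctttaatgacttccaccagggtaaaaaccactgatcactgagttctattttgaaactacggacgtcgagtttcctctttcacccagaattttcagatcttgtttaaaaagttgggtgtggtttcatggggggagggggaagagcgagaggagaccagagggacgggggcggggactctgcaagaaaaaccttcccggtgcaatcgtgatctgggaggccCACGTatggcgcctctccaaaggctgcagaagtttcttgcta
The shown CLDN7 window held 5 E-boxes, the GRHL3 window 2 and the ELF3 window 1, the VIM window held 1 ACGTG core, and the CLDN4 window held none of the motifs. The CLDN3 window had 1 E-box and 1 ACGTG core. Of 7 ZEB1 starts, 2 held E-boxes (1 and 3) and another held 2 ACGTG cores. No window of the members held the grainyhead motif. These matches describe letters in the window and no binding.

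ELF3, on chromosome 1 (201977073 to 201986311, 9 exons), had the largest hypoxic rise of the 10 genes in the 3 shRNA lines. HIF1A-null had 123 and 89.5 CPM in hypoxia and 58.9 and 70.3 CPM in normoxia. The gene was at 850.3 and 785 CPM in hypoxic shCDK8 libraries, against 215 and 171 CPM in normoxic ones. In shTIP60 it was at 1017 and 999 CPM in hypoxia and 188 and 206 CPM in normoxia. In shNT it was at 830.0 and 720.0 CPM and 87.5 and 110.3 CPM. Hypoxic HIF1A-null overlapped normoxic shNT. The log2 rises were 0.72 ± 0.17 (edgeR adjusted p = 0.00442) in HIF1A-null, 2.08 ± 0.18 (edgeR adjusted p = 8.46e-07) in shCDK8, 2.35 ± 0.18 (edgeR adjusted p = 1.40e-07) in shTIP60 and 2.97 ± 0.19 (edgeR adjusted p = 1.35e-08) in shNT. The HIF1A-null call was lost without hypoxia library A (adjusted p = 0.0674), without normoxia library A (adjusted p = 0.0519) and with library totals (adjusted p = 0.0570), each with edgeR. A long non-coding RNA on the same strand shares an ELF3 exon in the annotation, so its reads cannot be told apart from those of ELF3.

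GRHL2, on chromosome 8 (102504667 to 102681954, 16 exons), did not pass the test in hypoxia in any line, and the lines kept their order at both oxygen levels apart from the top. It was at 21.4 and 16.6 CPM in hypoxic HIF1A-null, 10.5 and 9.26 CPM in shCDK8, 2.06 and 3.04 CPM in shTIP60 and 22.9 and 22.9 CPM in shNT. In normoxia the values were 28.6 and 23.5 CPM, 9.39 and 6.89 CPM, 2.57 and 2.13 CPM and 21.6 and 20.7 CPM in those lines. All 4 shTIP60 libraries lay below all of shCDK8, which lay below all of shNT and HIF1A-null. Changes in hypoxia were -0.46 ± 0.19 in HIF1A-null, 0.29 ± 0.20 in shCDK8, 0.12 ± 0.24 in shTIP60 and 0.11 ± 0.19 in shNT. The HIF1A-null change was called lower without hypoxia library A (edgeR adjusted p = 0.0377), with library totals (edgeR adjusted p = 0.00602) and without the filter on counts (edgeR adjusted p = 0.0437).

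GRHL3, on chromosome 1 (24526048 to 24690972, 16 exons), spanned the widest range, the mean of normoxic HIF1A-null being 144.7 times that of hypoxic shNT. Its levels rest on few reads in shNT, with 2 and 4 counts in the hypoxia libraries and 8 and 7 in the normoxia libraries. In HIF1A-null it was at 7.77 and 2.86 CPM in hypoxia and 12.8 and 16.3 CPM in normoxia, and in shCDK8 at 10.4 and 8.33 CPM and 2.26 and 2.77 CPM. shTIP60 had 0.891 and 1.03 CPM and 0.337 and 0.993 CPM. It fell in hypoxic HIF1A-null (-1.46 ± 0.36, edgeR adjusted p = 0.00508) and rose in hypoxic shCDK8 (1.89 ± 0.38, edgeR adjusted p = 0.00221). The HIF1A-null call was lost without hypoxia library B (edgeR adjusted p = 0.0586). The changes in shTIP60 (0.52 ± 0.52) and shNT (-0.97 ± 0.98) were not called.

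ZEB1, on chromosome 10 (31607424 to 31818742, 9 exons), was low in all libraries, from 1.79 to 8.97 CPM, and was not called in hypoxia in any line. Hypoxic libraries had 2.16 and 3.12 CPM in HIF1A-null, 6.16 and 5.90 CPM in shCDK8, 8.97 and 8.40 CPM in shTIP60 and 3.11 and 4.23 CPM in shNT. In normoxia the levels were 1.79 and 2.55 CPM, 5.77 and 6.30 CPM, 5.27 and 6.61 CPM and 2.56 and 2.48 CPM. The levels of shCDK8 and shTIP60 stood above those of shNT and HIF1A-null in both conditions. The changes in hypoxia were 0.28 ± 0.25, -0.00 ± 0.22, 0.55 ± 0.22 and 0.54 ± 0.24 in HIF1A-null, shCDK8, shTIP60 and shNT, and the shNT change was called higher without hypoxia library A (edgeR adjusted p = 0.0493). The shTIP60 change was called higher with DESeq2 (adjusted p = 0.0491) and with only the groups compared in the fit (edgeR adjusted p = 0.00249). The antisense gene ZEB1-AS1 was counted in a row of its own, with 1825 counts over all libraries, against 2517 for ZEB1. The exons of their canonical transcripts do not overlap.

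VIM, on chromosome 10 (17270240 to 17279592, 10 exons), was at 0.632 and 0.552 CPM in hypoxic HIF1A-null libraries and at 0.429 and 0.601 CPM in normoxic ones. The shRNA lines were above: shCDK8 had 17.7 and 19.6 CPM in hypoxia and 14.6 and 16.7 CPM in normoxia, shTIP60 had 15.2 and 18.4 CPM and 10.8 and 10.6 CPM, and shNT had 11.6 and 9.69 CPM and 8.28 and 7.00 CPM. No HIF1A-null library overlapped any other line. In hypoxia VIM rose in shTIP60 (0.65 ± 0.17, edgeR adjusted p = 0.00643) and shNT (0.48 ± 0.17, edgeR adjusted p = 0.0350), while the changes in HIF1A-null (0.19 ± 0.31) and shCDK8 (0.26 ± 0.17) were not called. The shTIP60 call was lost without hypoxia library B (edgeR adjusted p = 0.0895) and with library totals (0.0576). The shNT call was lost without hypoxia library A, normoxia library A or normoxia library B (edgeR adjusted p = 0.0545 to 0.222), with library totals (0.218), without the filter on counts (0.0556) and when only the groups compared were fitted (0.0660). VIM-AS1 overlaps VIM exons on the opposite strand, so its reads cannot be told apart without the strand setting.

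**Figure D2:**
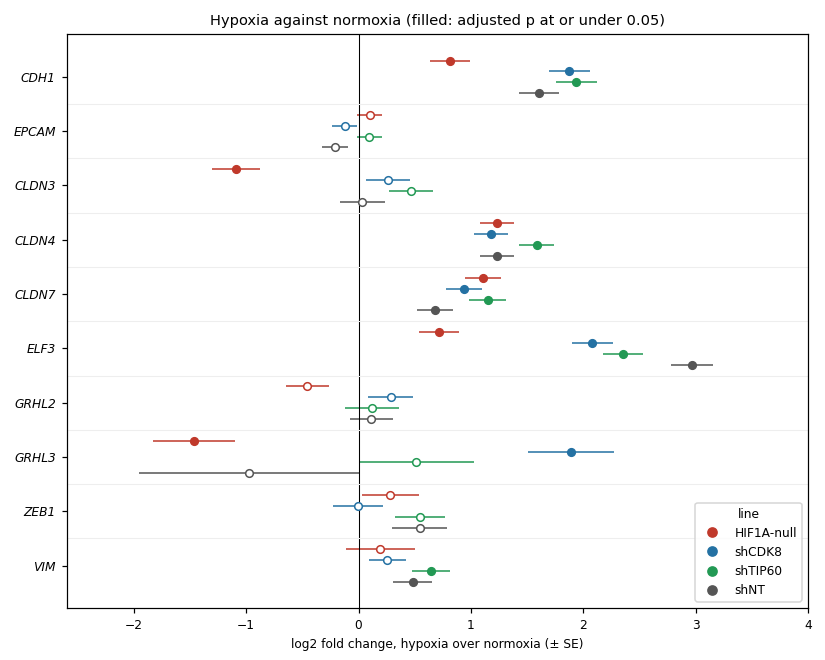
Change of each of the 10 genes in hypoxia against normoxia, as log2 fold change with its standard error, for HIF1A-null, shCDK8, shTIP60 and shNT. ELF3 rises by 0.72 in HIF1A-null and 2.97 in shNT, and CLDN3 falls by 1.09 in HIF1A-null, while EPCAM stays between -0.21 and 0.10 in the 4 lines.

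Ordered by group mean, CDH1 went from hypoxic shNT through shTIP60, HIF1A-null and shCDK8 to normoxic HIF1A-null, shNT, shTIP60 and shCDK8, and of these neighbours hypoxic HIF1A-null and shCDK8, and normoxic shTIP60 and shCDK8, overlapped between libraries. The highest mean was 6.18 times the lowest. For ELF3 the factor was 15.6, in the order hypoxic shTIP60, shCDK8 and shNT, normoxic shTIP60 and shCDK8, hypoxic HIF1A-null, normoxic shNT and normoxic HIF1A-null. There hypoxic shCDK8 and shNT, normoxic shTIP60 and shCDK8, and hypoxic HIF1A-null and normoxic shNT overlapped. CLDN4 spanned 3.89 times, with every hypoxic mean above every normoxic mean, and only hypoxic shTIP60 and HIF1A-null overlapped among neighbours. CLDN7 spanned 3.52 times with the same split, and hypoxic shTIP60, shCDK8, shNT and normoxic HIF1A-null overlapped in turn, as did normoxic shNT and shCDK8. CLDN3 spanned 5.49 times, from hypoxic shTIP60 to hypoxic HIF1A-null, and neither of these overlapped its neighbour. In between, normoxic shTIP60 overlapped hypoxic shCDK8, and hypoxic shNT overlapped both normoxic shCDK8 and normoxic shNT.

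EPCAM was highest in normoxic and then hypoxic shNT and lowest in normoxic shTIP60, and its overlapping neighbours were normoxic shCDK8 with hypoxic HIF1A-null and hypoxic shCDK8 with normoxic HIF1A-null. GRHL2 spanned 11.1 times, in the order normoxic HIF1A-null, hypoxic and normoxic shNT, hypoxic HIF1A-null, then hypoxic and normoxic shCDK8 and hypoxic and normoxic shTIP60. There normoxic shNT overlapped hypoxic HIF1A-null, and within shCDK8 and within shTIP60 the oxygen levels overlapped. GRHL3 went from normoxic HIF1A-null through hypoxic shCDK8, hypoxic HIF1A-null, normoxic shCDK8, hypoxic and normoxic shTIP60 to normoxic and hypoxic shNT, and the 2 shTIP60 groups were its overlapping neighbours. ZEB1 was highest in hypoxic shTIP60, apart from the next groups. Normoxic shCDK8, hypoxic shCDK8 and normoxic shTIP60 followed and overlapped in turn, as did hypoxic shNT, hypoxic HIF1A-null, normoxic shNT and normoxic HIF1A-null after them. VIM spanned 36.2 times, in the order hypoxic shCDK8 and shTIP60, normoxic shCDK8 and shTIP60, hypoxic and normoxic shNT, then hypoxic and normoxic HIF1A-null. Its overlapping neighbours were hypoxic shTIP60 with each shCDK8 group, normoxic shTIP60 with hypoxic shNT, and the HIF1A-null groups with each other.

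Lengths of the canonical transcripts allow levels to be set beside each other per kilobase. In hypoxic shNT libraries ELF3 had 249.7 CPM per kilobase, CLDN7 189, CLDN4 164, EPCAM 119, CDH1 42.6 and CLDN3 15.6, and in normoxic shNT libraries EPCAM had 138, CLDN7 118, CLDN4 69.9, ELF3 31.9, CLDN3 15.3 and CDH1 14.0. By this measure ELF3 stood above these other genes in hypoxic shNT, and below EPCAM, CLDN7 and CLDN4 in normoxic shNT. In hypoxic HIF1A-null libraries CLDN7 had 334 CPM per kilobase, CLDN4 252, EPCAM 102 and ELF3 34.2, so that ELF3 stood below these 3 genes there.

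The shRNA and HIF1A-null lines were also compared with shNT at each oxygen level. The comparisons at 1 oxygen level share the same shNT libraries. In normoxia 5 of 10 genes were called in HIF1A-null (11.7% of all genes), 7 in shCDK8 (13.1%) and 5 in shTIP60 (18.4%). In hypoxia 7 were called in HIF1A-null (41.1%), 6 in shCDK8 (27.9%) and 7 in shTIP60 (21.8%). HIF1A-null counts were 2 higher and 3 lower in normoxia (5.86% and 5.86% of all genes) and 3 higher and 4 lower in hypoxia (20.3% and 20.8%). shCDK8 counts were 4 higher and 3 lower in normoxia (5.80% and 7.27%) and 3 higher and 3 lower in hypoxia (14.4% and 13.4%). shTIP60 counts were 2 higher and 3 lower in normoxia (10.3% and 8.13%) and 5 higher and 2 lower in hypoxia (11.3% and 10.5%).

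**Figure D3:**
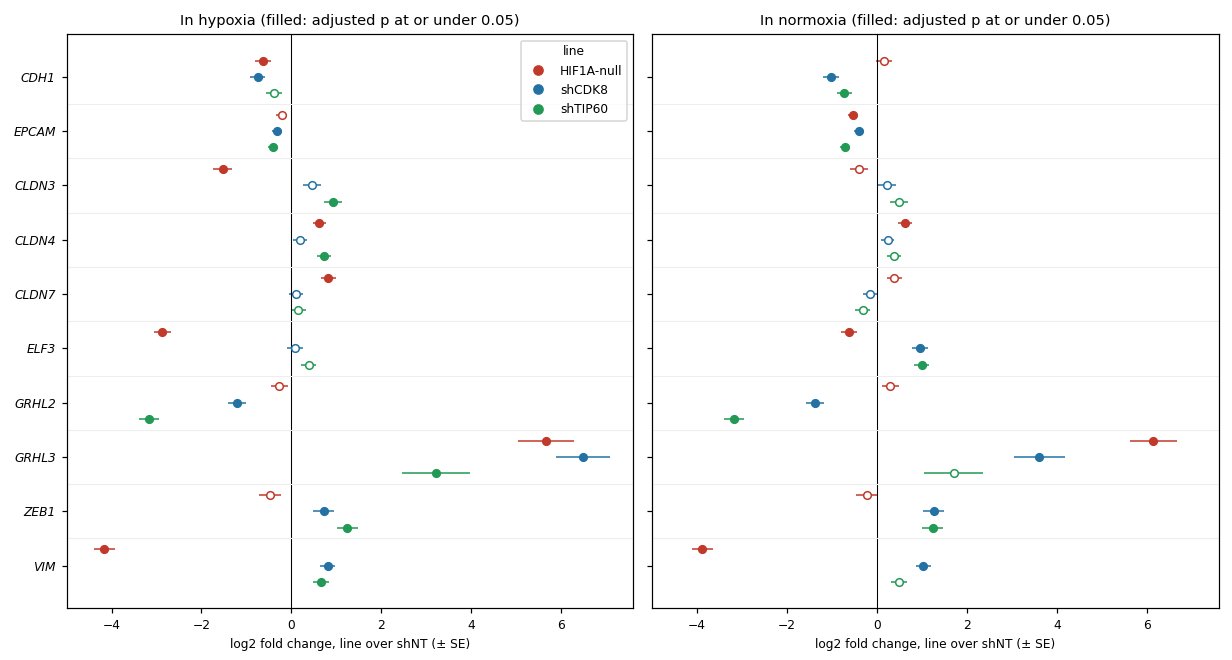
Difference of HIF1A-null, shCDK8 and shTIP60 from shNT, as log2 fold change with its standard error, for the 10 genes in hypoxia (left panel) and normoxia (right panel). VIM is lower in HIF1A-null (-4.17 in hypoxia, -3.88 in normoxia) and GRHL2 is lower in shTIP60 (-3.16 and -3.17).

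Against shNT, the adhesion gene CDH1 was lower in shCDK8 at both oxygen levels and EPCAM was lower in shTIP60 at both. CDH1 differed by -0.75 ± 0.17 (edgeR adjusted p = 0.00456) in hypoxic and -1.02 ± 0.18 (edgeR adjusted p = 9.24e-04) in normoxic shCDK8. It was lower in HIF1A-null in hypoxia (-0.63 ± 0.17, edgeR adjusted p = 0.00814) and had a difference of 0.16 ± 0.17 in normoxia that was not called, and without HIF1A-null hypoxia library B the hypoxia call was lost (edgeR adjusted p = 0.0703). In shTIP60 CDH1 was lower in normoxia (-0.72 ± 0.18, edgeR adjusted p = 0.00910), a call lost without shNT normoxia library B, shTIP60 normoxia library A or B (edgeR adjusted p = 0.0555 to 0.0797), and differed by -0.39 ± 0.17 in hypoxia, called lower with only the groups compared in the fit (edgeR adjusted p = 0.0454) but not in the fit of all libraries. EPCAM differed by -0.41 ± 0.11 in hypoxic and -0.71 ± 0.11 in normoxic shTIP60, by -0.32 ± 0.11 and -0.40 ± 0.11 in shCDK8 and by -0.53 ± 0.11 in normoxic HIF1A-null, all called lower, while its difference of -0.22 ± 0.11 in hypoxic HIF1A-null was not called, except with library totals (edgeR adjusted p = 0.0222) and at a mean of at least 5 CPM (edgeR adjusted p = 0.0459). The shCDK8 calls of EPCAM did not hold without any of the 4 libraries of their comparison (edgeR adjusted p = 0.0536 to 0.270 for the hypoxic and 0.0598 to 0.126 for the normoxic comparison), and its hypoxic shTIP60 call ended without shTIP60 hypoxia library A or B or shNT hypoxia library B (0.0706 to 0.147). With only the groups compared in the fit, the calls of EPCAM were lost in hypoxic shCDK8 (0.0828), normoxic shCDK8 (0.130) and normoxic HIF1A-null (edgeR adjusted p = 0.0914). The hypoxic shCDK8 call was also lost with library totals (0.0578) and, like the normoxic one, without the filter on counts (edgeR adjusted p = 0.151 in hypoxia and 0.0768 in normoxia).

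Among the claudins, CLDN4 was higher in HIF1A-null in hypoxia (0.62 ± 0.15, edgeR adjusted p = 0.00402) and normoxia (0.62 ± 0.15, edgeR adjusted p = 0.0123), and CLDN7 in hypoxia (0.82 ± 0.16, edgeR adjusted p = 7.60e-04). The CLDN4 call in hypoxia was lost without HIF1A-null hypoxia library A (edgeR adjusted p = 0.0699), and that in normoxia without HIF1A-null normoxia library B or shNT normoxia library A (0.0888 to 0.173) and when only the groups compared were fitted (0.0747). In hypoxic shTIP60 CLDN4 was higher (0.73 ± 0.15, edgeR adjusted p = 0.00273), as was CLDN3 (0.93 ± 0.20, edgeR adjusted p = 0.00337, lost without shNT hypoxia library B, edgeR adjusted p = 0.0605). CLDN3 was lower in hypoxic HIF1A-null (-1.53 ± 0.21, edgeR adjusted p = 3.87e-05), with a median of -0.29 over single-exon genes in that comparison. Without HIF1A-null normoxia library B it was called lower in normoxia too (edgeR adjusted p = 0.0221), and its difference there was -0.41 ± 0.20. In normoxic shTIP60 CLDN3, CLDN4 and CLDN7 differed by 0.49 ± 0.20, 0.37 ± 0.15 and -0.32 ± 0.16, not called, but with only the groups compared CLDN3 and CLDN4 were called higher (edgeR adjusted p = 0.00967 and 0.0274) and CLDN7 lower (edgeR adjusted p = 0.0258). Without the filter on counts CLDN3 was called higher there (edgeR adjusted p = 0.0375) and in hypoxic shCDK8 (edgeR adjusted p = 0.0454), where its difference was 0.45 ± 0.20.

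Of the activators, ELF3 was higher in normoxic shCDK8 (0.96 ± 0.17, edgeR adjusted p = 0.00127) and shTIP60 (0.99 ± 0.17, edgeR adjusted p = 8.02e-04), but in hypoxia the differences of 0.08 ± 0.17 and 0.38 ± 0.17 were not called. In HIF1A-null ELF3 was lower in hypoxia (-2.87 ± 0.19, edgeR adjusted p = 1.43e-08) and in normoxia (-0.62 ± 0.17, edgeR adjusted p = 0.0292). This normoxia call ended when HIF1A-null normoxia library A or shNT normoxia library B was left out (edgeR adjusted p = 0.187 to 0.280) and when only the groups compared were fitted (0.0908). GRHL2 was lower in shCDK8, with differences of -1.21 ± 0.20 (edgeR adjusted p = 3.41e-04) in hypoxia and -1.38 ± 0.20 (edgeR adjusted p = 1.91e-04) in normoxia, and in shTIP60, with -3.16 ± 0.22 (edgeR adjusted p = 6.43e-08) and -3.17 ± 0.22 (edgeR adjusted p = 6.61e-08). Its differences in HIF1A-null were -0.27 ± 0.19 and 0.30 ± 0.19, not called. GRHL3 was higher in HIF1A-null (5.65 ± 0.63 in hypoxia, 6.14 ± 0.52 in normoxia), in shCDK8 (6.48 ± 0.60 and 3.61 ± 0.56) and in hypoxic shTIP60 (3.20 ± 0.76). These fitted sizes rest on 6 and 15 shNT counts in hypoxia and normoxia and depend on the prior count. In normoxic shTIP60 the difference was 1.71 ± 0.66, called without shTIP60 normoxia library A (edgeR adjusted p = 0.0408), without the filter on counts (edgeR adjusted p = 0.00127) and with DESeq2 (adjusted p = 0.0197).

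The repressor ZEB1 was higher in shTIP60 at both oxygen levels, by 1.24 ± 0.23 in hypoxia and 1.24 ± 0.24 in normoxia. In shCDK8 it was higher in normoxia (1.26 ± 0.24, edgeR adjusted p = 0.00168) and in hypoxia (0.71 ± 0.23, edgeR adjusted p = 0.0308), where the call was lost without shCDK8 hypoxia library A or B or shNT hypoxia library A (edgeR adjusted p = 0.0839 to 0.192) and with only the groups compared in the fit (0.0515). HIF1A-null differed by -0.47 ± 0.25 and -0.21 ± 0.25, not called. VIM was lower in HIF1A-null, with differences of -4.17 ± 0.23 (edgeR adjusted p = 3.42e-09) in hypoxia and -3.88 ± 0.23 (edgeR adjusted p = 1.13e-08) in normoxia, and higher in shCDK8, by 0.81 ± 0.17 and 1.03 ± 0.17. In shTIP60 it was higher in hypoxia (0.66 ± 0.17, edgeR adjusted p = 0.0110), a call that ended when either hypoxia library B, of shTIP60 or of shNT, was left out (edgeR adjusted p = 0.124 to 0.133), and differed by 0.49 ± 0.17 in normoxia, not called. That normoxia difference was called higher with DESeq2 (adjusted p = 0.0473), at a mean of at least 5 CPM (edgeR adjusted p = 0.0420) and with only the groups compared (edgeR adjusted p = 0.0256).

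**Figure D4:**
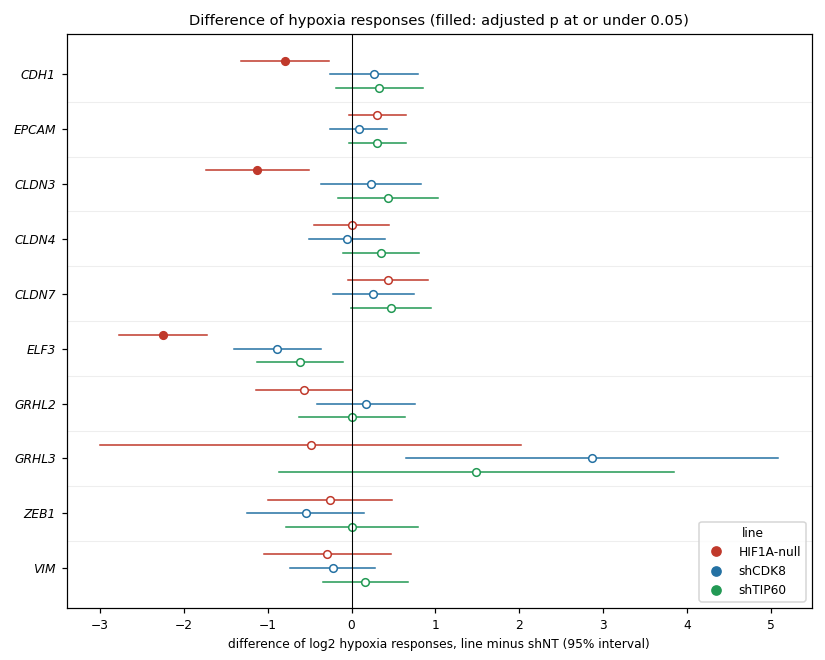
Difference between the hypoxia response of each altered line and that of shNT, in log2 with its 95% interval, for the 10 genes in HIF1A-null, shCDK8 and shTIP60. CDH1, CLDN3 and ELF3 lie below 0 in HIF1A-null, with ELF3 at -2.25.

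Whether a line changed the size of the response was tested as a difference of differences, (hypoxia minus normoxia of the line) minus (hypoxia minus normoxia of shNT). In HIF1A-null 3 of 10 genes had a lower response than in shNT, with 8.92% of all genes tested called lower and 16.4% in either direction. For each, all 4 differences between a hypoxia and a normoxia library of HIF1A-null lay below all 4 of shNT. The 4 differences of a line share 2 libraries at each oxygen level and are not independent. GRHL2, which was not called, was lower in the same way, and EPCAM, also not called, was higher. The share of all genes with such a separation was not computed, so the separation adds no weight to the calls. In the shTIP60 response, where 0 of the 10 genes were called, CDH1, CLDN3 and ELF3 were separated from shNT as well. The differences were -2.25 ± 0.25 (edgeR adjusted p = 4.41e-05) for ELF3, -1.12 ± 0.29 (edgeR adjusted p = 0.0161) for CLDN3 and -0.80 ± 0.25 (edgeR adjusted p = 0.0374) for CDH1. The 272 single-exon genes tested had a median of -0.29 in this comparison, against -0.02 over all genes. The part of this in the CLDN3 result was not tested. ELF3 kept its call without each library in turn. The CDH1 call was lost without any 1 of the 4 shNT libraries, HIF1A-null hypoxia library B or HIF1A-null normoxia library B (edgeR adjusted p = 0.0634 to 0.132), and the CLDN3 call without HIF1A-null hypoxia library B, HIF1A-null normoxia library B, shNT hypoxia library A or shNT normoxia library A (0.0608 to 0.0817) and when only the groups compared were fitted (0.0731).

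In shCDK8 and shTIP60 edgeR called 0 of the 10 genes. Of all genes tested, 0.0387% were called in shCDK8 and 0.0322% in shTIP60. An unadjusted p under 0.05 was found for 2 of the 10 genes in shCDK8 (ELF3 and GRHL3), where 10.9% of all genes tested had one. In shTIP60 it was found for 1 (ELF3), where 5.86% had one. These small counts were not tested against the background. DESeq2 called 1 in shCDK8, ELF3 (adjusted p = 0.0290), and 0 in shTIP60. Without the filter on counts edgeR called ELF3 (edgeR adjusted p = 0.00837) and GRHL3 (edgeR adjusted p = 0.00580) in shCDK8. The response of ELF3 in shCDK8 differed from that in shNT by -0.89 (95% interval -1.41 to -0.37) and in shTIP60 by -0.62 (95% interval -1.13 to -0.10). For CDH1 the differences were 0.27 (95% interval -0.26 to 0.79) and 0.33 (95% interval -0.19 to 0.85), for CLDN4 -0.05 (95% interval -0.51 to 0.40) and 0.35 (95% interval -0.10 to 0.81), and for VIM -0.23 (95% interval -0.73 to 0.28) and 0.17 (95% interval -0.35 to 0.68).

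Other genes of the same compartments were counted from 6 lists, beside the medians over all genes of -0.00 (HIF1A-null, shCDK8, shNT) and -0.02 (shTIP60). Of all genes tested, 18.9% were called higher and 19.1% lower in hypoxic HIF1A-null, 13.8% (higher) and 1713 of 15520 genes (lower) in shCDK8, 19.4% and 19.8% in shTIP60 and 20.7% and 20.0% in shNT. No list was tested as a set, and counts near these shares are no result about a list. The lists were also chosen with earlier results of these data known. Of 15 tested adherens junction and desmosome genes (16 listed), 4 rose and 0 fell in hypoxic HIF1A-null, 11 and 0 in shCDK8, 6 and 2 in shTIP60 and 8 and 2 in shNT, with median changes of 0.15, 0.57, 0.34 and 0.47. In shNT plakoglobin (JUP), which links cadherins to the cytoskeleton, rose by 1.06 ± 0.18, vinculin (VCL) by 0.94 ± 0.12 and the desmosomal cadherin DSG2 by 0.72 ± 0.13. Of 17 tight junction genes tested (18 listed), 8 rose and 3 fell in HIF1A-null, 7 and 0 in shCDK8, 9 and 2 in shTIP60 and 10 and 1 in shNT, with medians of 0.40, 0.39, 0.39 and 0.46. Cingulin (CGN), a cytoplasmic plaque protein of the tight junction, rose by 0.79 ± 0.13 in HIF1A-null and 1.36 ± 0.13 in shNT. The 4 of 15 adherens junction and desmosome genes higher, and the 3 of 17 tight junction genes lower, in HIF1A-null lay near the 18.9% and 19.1% of all genes.

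Of 11 epithelial surface protein, protease and sorting genes tested (12 listed), 5 rose in HIF1A-null and 0 fell, 6 rose and 1 fell in shCDK8, 5 and 1 in shTIP60, and 5 and 0 in shNT, with medians of 0.30, 0.57, 0.52 and 0.31. PRSS8, a membrane-anchored serine protease of epithelia, rose by 0.95 ± 0.14 in HIF1A-null and 1.36 ± 0.14 in shNT, and its inhibitor SPINT1 by 0.56 ± 0.15 and 0.82 ± 0.15. Of 11 epithelial transcription and splicing factors tested (13 listed), 2 rose and 5 fell in HIF1A-null, with a median of -1.07, while 4 rose and 0 fell in shCDK8 (median -0.23), and 3 rose and 3 fell in shTIP60 and in shNT (medians -0.39 and 0.07). EHF, an ETS factor like ELF3, fell by 1.88 in HIF1A-null (-1.88 ± 0.17). It was called lower in shTIP60 too (-0.55 ± 0.16, edgeR adjusted p = 0.0114). HNF4A, a nuclear receptor of gut and liver, fell by 2.23 in HIF1A-null (-2.23 ± 0.24). ESRP1, a splicing regulator of epithelial isoforms, rose by 0.87 ± 0.13 in HIF1A-null. Its rise was 0.82 ± 0.13 in shCDK8, 0.83 ± 0.13 in shTIP60 and 0.84 ± 0.13 in shNT.

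Of 14 listed repressors of epithelial genes 9 were tested, of which 2 rose and 1 fell in HIF1A-null, 0 and 0 in shCDK8, 1 and 0 in shTIP60 and 2 and 0 in shNT, with medians of 0.07, 0.00, 0.30 and 0.20. In HIF1A-null that is 2 of 9 and 1 of 9, beside 18.9% and 19.1% of all genes. Of 15 mesenchymal markers 10 were tested, of which 2 rose and 0 fell in HIF1A-null, 5 and 1 in shCDK8, 5 and 0 in shTIP60 and 4 and 2 in shNT, with medians of 0.28, 0.32, 0.54 and 0.59. The 2 of 10 higher in HIF1A-null lay near the 18.9% of all genes. Against shNT, TWIST1, a basic helix-loop-helix repressor, was lower in HIF1A-null (differences of -6.00 ± 0.43 in hypoxia and -4.42 ± 0.35 in normoxia), and SNAI1 was higher in hypoxic HIF1A-null (1.33 ± 0.20). Of the 9 repressors tested, 3 were called higher and 2 lower in hypoxic HIF1A-null (20.3% and 20.8% of all genes). In normoxic HIF1A-null 4 were called higher and 2 lower (5.86% and 5.86% of all genes). TWIST1 had 6 counts in the hypoxic and 22 in the normoxic HIF1A-null libraries together. In shTIP60 the sorting protein gene MAL2 was lower (differences of -4.10 ± 0.18 in hypoxia and -3.47 ± 0.17 in normoxia), and in shCDK8 PVRL4, which encodes nectin-4, was higher by 4.58 ± 0.34 and 3.95 ± 0.32. MAL2 was higher in HIF1A-null (2.96 ± 0.15 and 2.61 ± 0.15) and shCDK8 (1.36 ± 0.14 and 1.07 ± 0.14). In its list 1 of 11 genes was called higher and 2 lower in shTIP60 at each oxygen level. The shares of all genes were 11.3% and 10.5% in hypoxia and 10.3% and 8.13% in normoxia. In the list of PVRL4, 6 of 15 genes were higher and 2 lower in hypoxic shCDK8 (14.4% and 13.4%). In normoxic shCDK8, 2 of 15 were higher and 1 lower (5.80% and 7.27%).

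**Figure D5:**
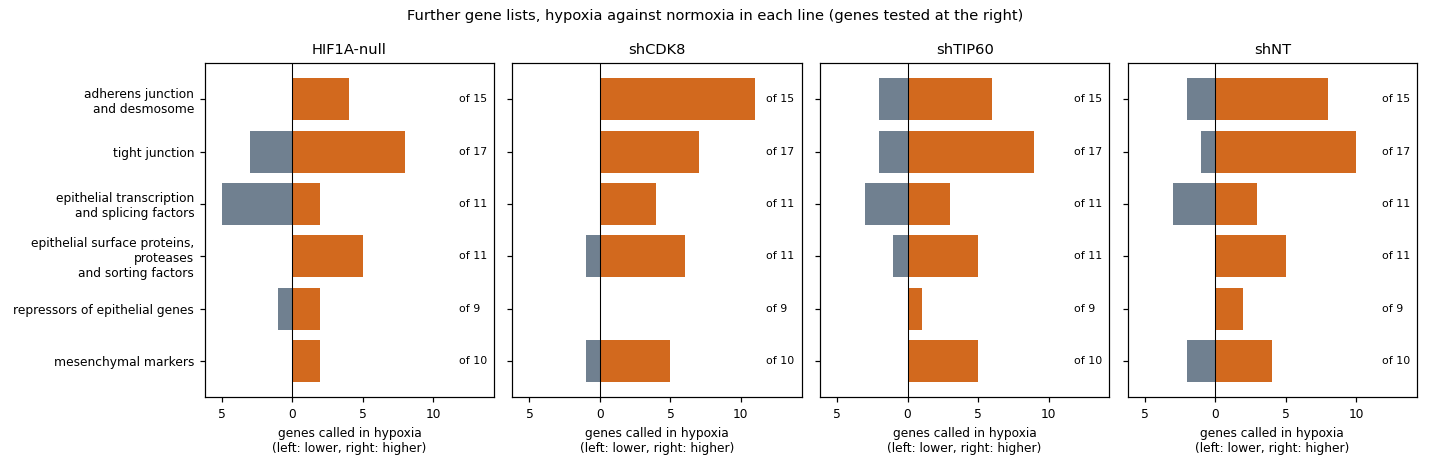
Number of genes called higher and lower in hypoxia against normoxia, of those tested, for the 6 gene lists in HIF1A-null, shCDK8, shTIP60 and shNT. The adherens junction and desmosome list shows 11 of 15 genes higher in shCDK8 and 4 in HIF1A-null, and the difference was not tested.

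Finally, among the 5 genes most like CDH1 over the 16 libraries, by Pearson correlation of log2 CPM, were FKBP8 (0.964), SEMA4G (0.964), JUP (0.961) and PKD1 (0.959). SEMA4G was at 72.6 ± 3.86 CPM in hypoxic HIF1A-null, 67.2 ± 0.518 in shCDK8, 84.0 ± 4.72 in shTIP60 and 103 ± 7.44 in shNT (SD, n = 2), and 46.4 ± 5.30, 29.6 ± 5.76, 40.6 ± 0.468 and 38.8 ± 3.50 in normoxia. For VIM the 5 genes were LINC00673 (0.992), ZC4H2 (0.978), PODXL2 (0.966), PPP3CA (0.959) and MAMDC2 (0.951). The correlations are descriptions over libraries that share lines and oxygen levels, and VIM and its 5 genes are all lower in HIF1A-null than in the other lines. LINC00673 was at 1.43 ± 0.0833 CPM in hypoxic HIF1A-null, against 40.9 ± 0.900 CPM in hypoxic shNT.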

How the data were processed

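The table deposited by the authors holds unscaled whole-number read counts by gene symbol, in 16 columns of 1 library each, per the file headers and values. Without giving roles, the submitters' processing notes name the build hg19 (GRCh37) and the tools HTSeq (0.5.4p5), GSNAP, R (3.0.3) and DESeq (1.14.0). The annotation, the strand setting and any read filters are not given in the sources used here. Columns were matched to groups by line and oxygen. Genes with low counts were removed by edgeR's filterByExpr (minimum count 10, minimum total 15), leaving 15520 of 23669 genes. edgeR 4.0.16 in R 4.3.3 was fitted with TMM factors, robust quasi-likelihood dispersion and 1 coefficient per group over the 16 libraries. The common biological coefficient of variation, a summary over all genes, was 0.132. Tests were two-sided and adjusted by Benjamini-Hochberg. Standard errors are the log2 fold change divided by the root of F. The 13 comparisons were 4 of oxygen, 6 of line and 3 of responses. Totals per library were 26620086 to 39401494, and a floor of 3 counts covers only the error of counting, as PCR copies were not marked by molecular identifiers. Replicate libraries differed by 8.90 to 68.3 times counting variance. Alternatives were DESeq2 1.42.0, RLE size factors, library totals, 2 other filters, a fit of only the groups compared, leaving out each library, and a block by library number series, the last chosen after seeing the data. The members and lists were chosen with earlier results of these data known. Named genes were all members, the targeted genes, and up to 4 genes per list with the smallest adjusted p, plus the 5 most like CDH1 and VIM. Results on a few genes are not reported here. Positions are from GENCODE lifted to GRCh37.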

Additional observations from a re-analysis of the deposited data

Results flagged for a closer look

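The hypoxia responses of 3 genes differed between HIF1A-null and shNT by the test of the difference itself. On the log2 scale, HIF1A-null minus shNT, the difference was -2.25 ± 0.25 (edgeR adjusted p = 4.41e-05) for ELF3, -1.12 ± 0.29 (edgeR adjusted p = 0.0161) for CLDN3 and -0.80 ± 0.25 (edgeR adjusted p = 0.0374) for CDH1 (± SE). The hypoxia responses themselves were 0.72 ± 0.17 in HIF1A-null and 2.97 ± 0.19 in shNT for ELF3, -1.09 ± 0.21 and 0.03 ± 0.20 for CLDN3, and 0.81 ± 0.17 and 1.61 ± 0.18 for CDH1. Of all genes tested, 16.4% had such a difference called. The ELF3 call held without each library in turn, while the CDH1 and CLDN3 calls were lost without some single libraries. With only the groups compared in the fit the CLDN3 call was lost too (edgeR adjusted p = 0.0731). Single-exon genes, of which CLDN3 is 1, had a median of -0.29 in this comparison, against -0.02 over all genes.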

How the results depend on the processing

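No gene called in the fit of all libraries or in an alternative run changed sign between these fits. Changes of sign where neither fit called the gene were not counted as reversals. Of 130 tests of the 10 genes in 13 comparisons, 130 stayed on the same side of the threshold with RLE factors, 126 with DESeq2 (4 gained), 123 with library totals (4 lost, 3 gained), and 120 without the filter except 1 count (3 lost, 7 gained). At a mean of at least 5 CPM, 102 of 104 stayed and 2 were gained, and with only the groups compared 114 of 129 stayed (8 lost, 7 gained). Leaving out 1 library, 593 of 640 stayed, 43 were lost and 4 gained, and the cause was not tested. With 1 library left in a group, its spread is assumed to be that of the other groups. The depth limits GRHL3 most, with 2 to 8 counts in shNT libraries.

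With only the groups compared, 1030 genes were called for the response of HIF1A-null, 51 for that of shTIP60, 3442 for hypoxia in HIF1A-null, 1026 for HIF1A-null and 4830 for shTIP60 against shNT in normoxia, and members called there were 2 in HIF1A-null and 9 in shTIP60. The responses of shCDK8 and shTIP60 had 215 and 59 genes called with DESeq2, 15 and 10 at a mean of at least 5 CPM, and 384 and 106 without the filter, against 6 and 5 in the results given. With library totals they were 3 higher and 5 lower, and 2 higher and 4 lower, against 1 and 5, and 1 and 4. Members called in the shCDK8 response were 1 with DESeq2 and 2 without the filter.

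No replicate number in the columns pairs libraries across groups. The 28 pairs of groups had deviations that correlated by 0.0307 to 0.336 (18 over 0.1) between the 2 series of library numbers. All were positive, but with 10 at or under 0.1, and no label that ties the numbers to a batch or culture, the libraries were not taken as paired. With a replicate block by these series, chosen after seeing the data, 121 of 130 member tests stayed and 9 were gained. The gained calls, by edgeR adjusted p, were in hypoxia CLDN3 (0.0303) and ZEB1 (0.0253) in shTIP60 and GRHL2 (0.0237) in HIF1A-null; against shNT, CDH1 (0.0416) in hypoxic shTIP60, CLDN3 (0.0418), CLDN4 (0.0446) and VIM (0.0316) in normoxic shTIP60 and CLDN7 (0.0314) in normoxic HIF1A-null; and the response of ELF3 (0.0265) in shCDK8. The block gave 4187 calls for the response of HIF1A-null, 532 for shCDK8 and 72 for shTIP60, and 2959, 3264 and 4287 for HIF1A-null, shCDK8 and shTIP60 against shNT in normoxia, with 1 member in the shCDK8 response and 8 in normoxic shTIP60.

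Without 1 library, hypoxia calls were 1846 to 3576 in shCDK8 (lowest without its hypoxia library B), 3786 to 4391 in shTIP60 (without its normoxia library A) and 4104 to 5419 in shNT (without its normoxia library A). Against shNT in hypoxia they were 2195 to 3871 for shCDK8 and 1709 to 3074 for shTIP60 (each lowest without hypoxia library A of the line), and in normoxia 1046 to 1563 for HIF1A-null, 1066 to 1814 for shCDK8 (both without shNT normoxia library B) and 1368 to 1668 for shTIP60 (without its normoxia library A). Response calls were 1179 to 2985 for HIF1A-null (without shNT normoxia library A), 1 to 12 for shCDK8 (without its hypoxia library A) and 2 to 10 for shTIP60 (without shNT normoxia library B, for example). Members called were 1 to 3 for the HIF1A-null response and 4 to 7 for hypoxic shTIP60 (without shNT hypoxia library B).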
